A study of Homo sapiens with 6 samples.

Results

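The miR-200 family was examined in KPL4, a cell line from a human breast adenocarcinoma. Its members were all mature microRNAs (miRNAs) of the cluster on chromosome 1 and of the cluster on chromosome 12, both arms of each hairpin where the deposited table lists both. This gave 9 of the 2656 mature miRNAs listed: miR-200b-3p, miR-200b-5p, miR-200a-3p, miR-200a-5p and miR-429 from chromosome 1, and miR-200c-3p, miR-200c-5p, miR-141-3p and miR-141-5p from chromosome 12. All 9 passed the filter on low counts and were among the 783 miRNAs tested.

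Small RNA was sequenced to compare ERβ knockout cells into which estrogen receptor β (ERβ) had been transfected with ERβ knockout cells that lack it. The cells with exogenous ERβ gave 3 libraries, called ERβ 1, 2 and 3 here, and the ERβ knockout cells gave 3, called knockout S1, S2 and 3. Both groups carry the knockout, and no knockout cells with an empty vector and no unedited KPL4 cells are among the samples. Any effect of ERβ and other differences between the cells cannot be told apart. The sources used here give neither whether replicates were separate cultures nor whether the cells with ERβ came from 1 clone, so the spread behind each p-value is that between samples, which may be technical. The messenger RNA of ERβ is not measured by this assay.

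The miR-200 family is known as a keeper of the epithelial state. Its 3p arms pair through their seed, the bases near the 5′ end that choose targets, with the messenger RNAs of ZEB1 and ZEB2, which repress E-cadherin, and these factors in turn repress transcription of both clusters. Loss of the family is a known feature of epithelial to mesenchymal transition in breast and other carcinomas. One hairpin yields a 5p and a 3p arm, of which the more abundant is the guide and the other is mostly degraded.

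The mature sequences are shown because the members are compared by seed and because several differ by few bases. They are given 5′ to 3′ from RefSeq (GRCh38.p14) with the seed, bases 2 to 8, in capitals. The first group is miR-200b-3p, miR-429 and miR-200c-3p, which share a seed.
miR-200b-3p: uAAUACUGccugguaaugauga
miR-429: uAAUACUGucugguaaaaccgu
miR-200c-3p: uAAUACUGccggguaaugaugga
The second group is miR-200a-3p and miR-141-3p.
miR-200a-3p: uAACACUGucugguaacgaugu
miR-141-3p: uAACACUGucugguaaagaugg
The 5p arms follow, with miR-200b-5p and miR-200a-5p sharing a seed and miR-200c-5p having another.
miR-200b-5p: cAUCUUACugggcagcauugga
miR-200a-5p: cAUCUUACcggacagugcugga
miR-200c-5p: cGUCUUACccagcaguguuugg

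Counted from 1 at the 5′ end, the seeds of the 2 groups of 3p arms differ by a single substitution, U4C from miR-200b-3p to miR-200a-3p. Across clusters, miR-141-3p and miR-200a-3p differ by A17C and G22U, both outside the seed. Likewise miR-200c-3p and miR-200b-3p differ by G11U and G22A over the 22 bases they share. Each seed group of 3p arms thus holds members of both clusters. A sequence was matched for 8 of the 9 members and for 2367 of the 2656 listed miRNAs. Among these 2367 no miRNA outside the family had the seed of the 3p arms or of miR-200b-5p and miR-200a-5p, while miR-550a-3p shared that of miR-200c-5p. That miRNA averaged 8.57 ± 1.14 CPM (counts relative to the scaled total of the library) with exogenous ERβ and 8.07 ± 1.67 CPM in the knockout (SD, n = 3 each), a log2 fold change of 0.09 ± 0.18 that did not pass the test (edgeR adjusted p = 0.784).

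On GRCh38 the chromosome 1 cluster lies on the plus strand, with MIR200B at chr1:1167104-1167198, MIR200A at chr1:1167863-1167952 and MIR429 at chr1:1169005-1169087. These 3 hairpins span 1984 bases and overlap no other annotated gene on either strand. The chromosome 12 cluster also lies on the plus strand, with MIR200C at chr12:6963699-6963766 and MIR141 at chr12:6964097-6964191, a span of 493 bases. Both of these hairpins lie in an intron of MIR200CHG, a long noncoding RNA and the annotated host gene. The MIR200C hairpin is shown because its arm balance differed between the groups, with the mature 5p and 3p arms in capitals.
MIR200C: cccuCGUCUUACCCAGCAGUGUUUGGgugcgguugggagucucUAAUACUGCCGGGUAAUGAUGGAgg
The other hairpin of that cluster is shown for the same reason, with its 3p arm in capitals.
MIR141: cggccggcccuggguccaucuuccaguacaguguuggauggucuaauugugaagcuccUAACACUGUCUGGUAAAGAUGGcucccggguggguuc
The MIR200B hairpin serves as its counterpart from the other cluster, with both arms in capitals.
MIR200B: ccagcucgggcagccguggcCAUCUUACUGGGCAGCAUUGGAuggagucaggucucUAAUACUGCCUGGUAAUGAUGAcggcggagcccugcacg

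Libraries held 10288415 to 14296902 counts, and 3 counts, the limit that a count of 0 allows, correspond to 0.201 to 0.305 CPM. CPM here use totals scaled by TMM, which aligns libraries on miRNAs that move little. Knockout library S2 stood apart: its chi-square per degree of freedom was 307 and 331 against the other knockout libraries, while every other pair within a group lay between 12.2 and 21.2. Results that rest on it are given with and without it. Of miRNAs known to mark cell types, the 9 epithelial ones were all present, summing to 98600 to 103296 CPM with exogenous ERβ and 99458 to 114967 CPM in the knockout, although 5 of them are family members. Among these 9, 2 were called higher and 4 lower by the edgeR test given below, against 9.83% and 13.3% of all tested miRNAs. Of the 4 lower ones 2 are family members. The stromal and endothelial list summed to 13297 to 14473 CPM with ERβ and 16891 to 17382 CPM in the knockout. Of its 4 tested members 3 were called lower by the edgeR test given below, against 13.3% of all tested miRNAs. Nearly all of the list's sum was miR-126-3p, while miR-145-5p and miR-214-3p stayed at 0.545 CPM or less, and the part of these differences in the results below was not tested. The blood list of 7 miRNAs summed to 19.2 to 22.1 CPM with ERβ and 18.6 to 23.5 CPM in the knockout, and the muscle list of 3 to 0.473 to 1.27 CPM with ERβ and 3.06 to 4.37 CPM in the knockout. Of the neural markers miR-124-3p was at 0 in 5 libraries, whereas miR-9-5p averaged 37358 ± 769 CPM with ERβ and 42756 ± 4028 CPM in the knockout (SD, n = 3 each).

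The summed share of the family did not differ between the groups beyond the spread of the libraries. Its 9 members took 8.68, 8.94 and 8.48% of all counts in ERβ libraries 1, 2 and 3, against 9.09, 8.21 and 8.94% in knockout libraries S1, S2 and 3. These shares overlapped, with means of 8.70 ± 0.227% and 8.74 ± 0.471% (SD, n = 3 each), a difference of -0.0435 percentage points (exact two-sided permutation p = 1, smallest possible 0.1). These shares are of library totals, while the calls that follow use TMM scaling, on which the family's sum was not tested. The TMM factors did not overlap between the groups, at 1.04 to 1.08 with ERβ and 0.926 to 0.990 in the knockout. With TMM 2 members were lower with ERβ, miR-141-3p and miR-200c-3p, while none was higher (edgeR's quasi-likelihood test, Benjamini-Hochberg adjusted p under 0.05 over all 783 miRNAs). Among all tested miRNAs 13.3% were called lower and 9.83% higher, 23.1% in either direction. The median log2 fold change, exogenous ERβ over knockout, was -0.01 over the members and -0.01 over all tested miRNAs. In 5 of the 9 members the groups did not overlap, against 39.8% of all tested miRNAs. With library totals, the scale of the shares, 2 members were called higher and 0 lower, against 18.6% and 7.79% of all tested miRNAs.

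The 3p arms made up 98.0 to 98.1% of the family's counts with exogenous ERβ and 98.3 to 98.4% in the knockout. By mean CPM over the 6 libraries they ranked between place 6 and place 36 of all miRNAs, in the order miR-141-3p, miR-200a-3p, miR-200c-3p, miR-429 and miR-200b-3p. The 5p arms ranked between place 93 and place 197, in the order miR-141-5p, miR-200c-5p, miR-200a-5p and miR-200b-5p. Neighbours in this order kept it in all 6 libraries except the first pair, since miR-141-3p exceeded miR-200a-3p in 4 of 6. As small RNA libraries capture different sequences with different efficiency, an order of counts is not an order of molecules.

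**Figure D1:**
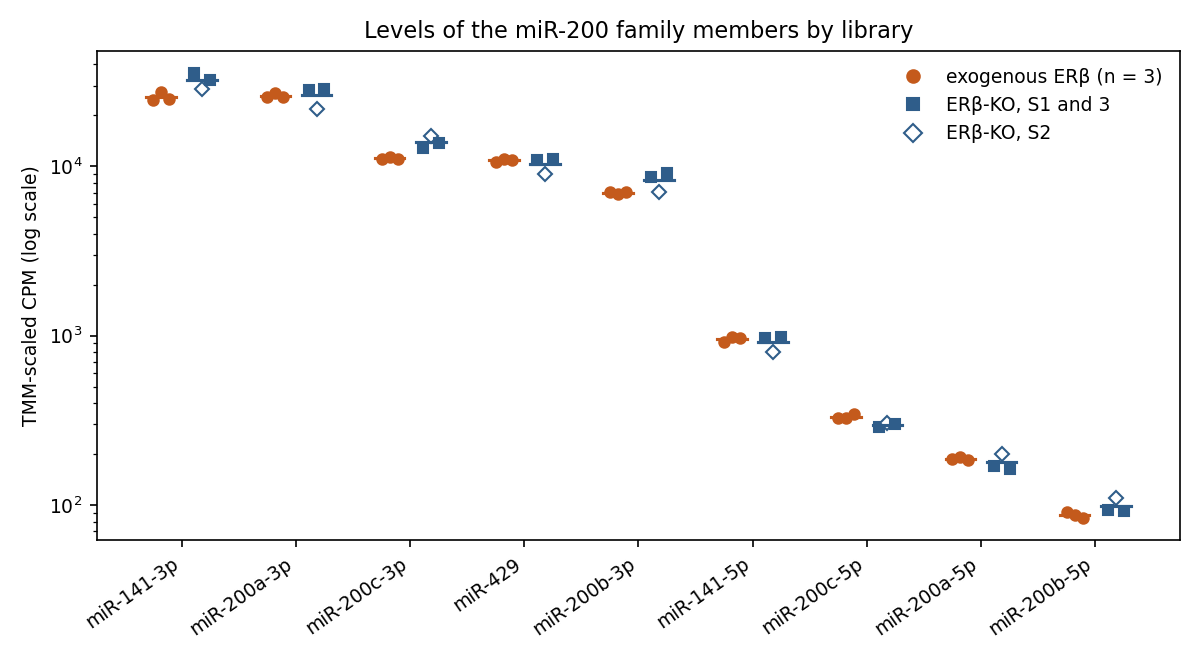
TMM-scaled CPM (log axis) of the 9 members in each library, with orange circles for exogenous ERβ, blue squares for knockout S1 and 3, an open diamond for knockout S2 and bars for group means. The ERβ circles of miR-141-3p and miR-200c-3p lie below all knockout points, and those of miR-200b-3p and miR-200b-5p narrowly so. The circles of miR-200c-5p lie above all knockout points, while those of miR-200a-3p and miR-429 lie among them.

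In the chromosome 12 cluster both 3p arms were lower with exogenous ERβ. For miR-200c-3p, which shares its seed with miR-200b-3p and miR-429, ERβ libraries 1, 2 and 3 had 10996, 11359 and 11101 CPM, against 12916, 15009 and 13664 CPM in knockout libraries S1, S2 and 3. Every ERβ library lay below every knockout library, and S2 was the highest of all. The log2 fold change was -0.31 ± 0.07 (edgeR adjusted p = 0.0123, n = 3 each). For miR-141-3p, the most abundant member, the values were 24510, 27562 and 25039 CPM with ERβ, against 35580, 28515 and 32532 CPM in the knockout. Here too the groups did not overlap, but S2 was now the lowest knockout library, close to ERβ 2. Its log2 fold change was -0.33 ± 0.09 (edgeR adjusted p = 0.0295, n = 3 each).

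Both falls kept their direction under all 15 alternatives, but the call was lost in 6 of them for miR-200c-3p and in 8 for miR-141-3p. Scaling was 1 such choice: upper-quartile factors and totals raised the median of all miRNAs by 0.11 and 0.15, and gave -0.20 (adjusted p = 0.0710) and -0.16 (0.187) for miR-200c-3p, and -0.21 (0.127) and -0.17 (0.134) for miR-141-3p. With ERβ 1, 2 or 3 left out neither was called, at -0.27, -0.29 and -0.31 for miR-200c-3p and -0.26, -0.34 and -0.31 for miR-141-3p (adjusted p = 0.0668 to 0.154). Without S2 the fits gave -0.25 for miR-200c-3p (adjusted p = 3.18e-05) and -0.41 for miR-141-3p (adjusted p = 6.88e-07). All p-values without S2 rest on only knockout S1 and 3 on that side, after the library that stood apart in these same data was left out. The standard error of miR-141-3p was then 0.05, and 15.2% of 800 miRNAs were called higher and 19.6% lower.

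The 5p arms of this cluster did not follow. For miR-200c-5p, the less abundant arm, ERβ libraries had 327, 327 and 346 CPM and knockout libraries 289, 307 and 300 CPM, so that every ERβ library lay above every knockout library. Its log2 fold change of 0.16 ± 0.07 did not pass the test (edgeR adjusted p = 0.167). For miR-141-5p the values were 919, 984 and 975 CPM with ERβ, against 968, 799 and 979 CPM in the knockout, and overlapped (log2 fold change 0.07 ± 0.09, edgeR adjusted p = 0.655). The sign of miR-200c-5p was opposite to that of its own 3p arm under all alternatives, and it was called higher under upper-quartile scaling (0.27, adjusted p = 0.0270), under library totals (0.31, adjusted p = 0.0181) and without S2 (0.18, adjusted p = 0.00845). For miR-141-5p the fitted value was -0.02 without S2.

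In the chromosome 1 cluster no member passed. The 3p arm of miR-200a, which shares its seed with miR-141-3p, had 25782, 26990 and 25640 CPM with exogenous ERβ, against 28423, 21917 and 28517 CPM in the knockout. The ERβ values lay between S2 and the other knockout libraries, and the log2 fold change was -0.01 ± 0.10 (edgeR adjusted p = 0.956). Its direction turned under 12 of 15 alternatives, to 0.15 with library totals, and it was called lower without S2 (-0.12, adjusted p = 0.0187).

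For miR-429 the values were 10642, 11059 and 10973 CPM with ERβ, against 10957, 9003 and 11119 CPM in the knockout, again with S2 below all others. The groups overlapped, and the log2 fold change was 0.07 ± 0.09 (edgeR adjusted p = 0.612). It was 0.23 and called higher with library totals (adjusted p = 0.0368), and -0.02 without S2. The third 3p arm of the cluster, miR-200b-3p, had 7058, 6850 and 7055 CPM with ERβ, against 8655, 7099 and 9152 CPM in the knockout. These groups were just apart, since S2 lay close to the ERβ libraries. The log2 fold change of -0.25 ± 0.09 did not pass (edgeR adjusted p = 0.0916). Without S2, with only knockout S1 and 3 left on that side, it was -0.35 and called (adjusted p = 4.81e-07). Like the 3p arms of chromosome 12, miR-200b-3p stayed below 0 under all 15 alternatives, from -0.35 to -0.09.

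The 5p arms of this cluster were the rarest members. miR-200a-5p averaged 188 ± 3.88 CPM with ERβ and 179 ± 20.1 CPM in the knockout (SD, n = 3 each), a log2 fold change of 0.07 ± 0.10 (edgeR adjusted p = 0.659). miR-200b-5p averaged 87.6 ± 3.42 CPM with ERβ and 98.3 ± 10.1 CPM in the knockout, a log2 fold change of -0.17 ± 0.10 (edgeR adjusted p = 0.292). In both the knockout library S2 was the highest of the 6, at 201 and 110 CPM, while it was the lowest of the knockout libraries for the 3p arms of the same hairpins. Without S2 miR-200a-5p was called higher (0.17, adjusted p = 0.0211), and miR-200b-5p was at -0.08 (adjusted p = 0.345).

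The number of members called thus depended on scaling and on S2. With upper-quartile factors 1 member was higher and 0 lower, against 15.7% and 8.94% of all tested miRNAs. With library totals 2 were higher and 0 lower, against 18.6% and 7.79%. Without S2 2 were higher and 4 lower, against 15.2% and 19.6% of 800 miRNAs. It was 1 lower without knockout S1 or knockout 3, against 9.96% and 10.8% of all tested miRNAs, and 0 without ERβ 1, 2 or 3, against 7.15%, 7.43% and 7.75%. None was higher in any of these 5 fits, against 7.63% and 8.71% without knockout S1 and 3, and 6.54%, 6.44% and 6.12% without ERβ 1, 2 and 3.

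**Figure D2:**
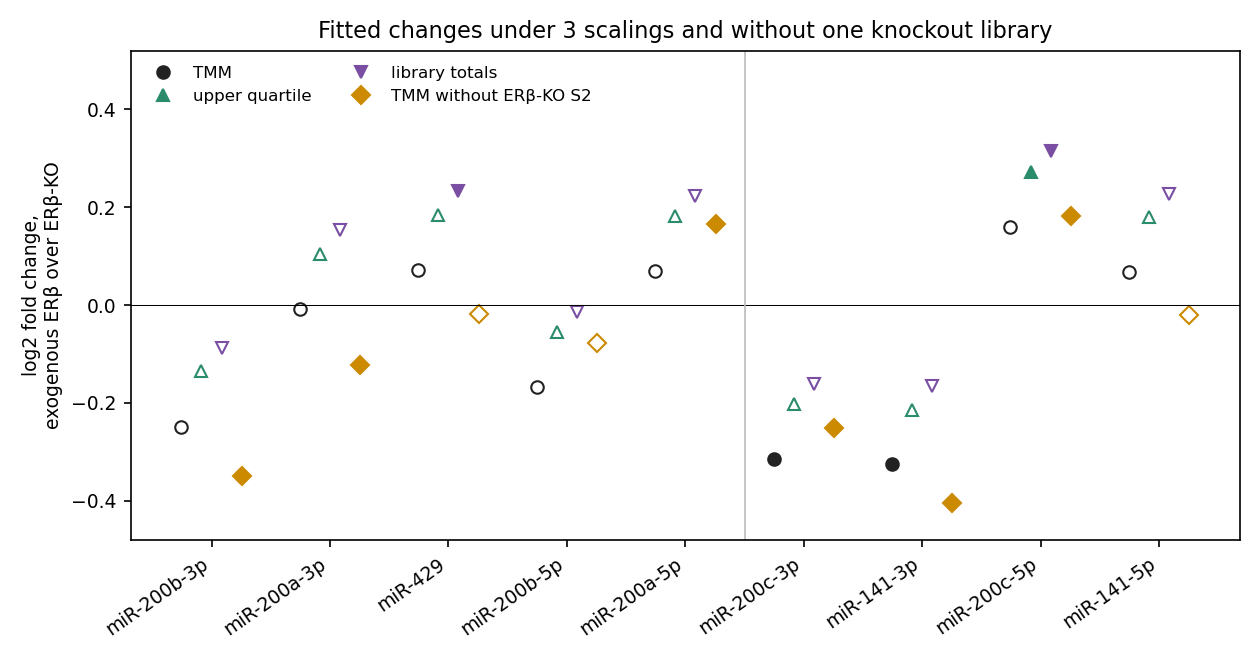
Fitted log2 fold change (exogenous ERβ over knockout) of each member, with black circles for TMM, green triangles for upper-quartile factors, purple triangles for library totals and gold diamonds for TMM without knockout S2; filled symbols passed an adjusted p of 0.05, and the grey line parts the chromosome 1 members (left) from those of chromosome 12. The 3p arms of miR-200c, miR-141 and miR-200b and the 5p arm of miR-200b lie below 0 in all 4 fits. The 5p arms of miR-200c and miR-200a lie above 0 in all 4.

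Ratios between members within a library do not depend on how libraries are scaled. The chromosome 12 cluster was lower relative to the chromosome 1 cluster in every ERβ library. Summed over its members, it held 0.840, 0.890 and 0.853 times the counts of the other cluster in ERβ libraries 1, 2 and 3, against 1.03, 1.16 and 0.968 times in knockout libraries S1, S2 and 3. The groups did not overlap, and S2 had the highest ratio. On the log2 scale the means were -0.22 ± 0.04 with ERβ and 0.07 ± 0.14 in the knockout (SD, n = 3 each), a difference of -0.29 (exact two-sided permutation p = 0.1, the smallest that 3 against 3 libraries can give; 0.22 adjusted over the 11 within-library measures computed). The difference was -0.21 without S2 and -0.32 for the most abundant member of each cluster alone, but -0.05 (exact permutation p = 0.1) when each member counted equally by the mean of its log2 counts, in which the 5p arms weigh as much as the 3p arms. As a share of the family's counts, the cluster on chromosome 12 held 45.6, 47.1 and 46.0% with ERβ, against 50.7, 53.8 and 49.2% in the knockout.

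The balance of the seed groups did not show such a difference. The group of miR-200b-3p, miR-200c-3p and miR-429 made up 36.3, 34.9 and 36.5% of the 3p counts with exogenous ERβ, against 33.7, 38.2 and 35.7% in the knockout. S1 and S2 lay on either side of all ERβ libraries. The log2 ratio of this group to that of miR-200a-3p and miR-141-3p averaged -0.84 ± 0.05 with ERβ and -0.84 ± 0.14 in the knockout (SD, n = 3 each), a difference of 0.00 (exact two-sided permutation p = 1). With a library left out the difference lay between -0.06 and 0.08.

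Pairs of members show where the counts moved. They are given as a description, and no pair passed the same permutation test, which cannot go below 0.1. Between the members of the miR-200a-3p seed group, miR-141-3p had 0.951, 1.02 and 0.977 times the counts of miR-200a-3p with ERβ, against 1.25, 1.30 and 1.14 times in the knockout. The pair was thus near parity in all ERβ libraries, with miR-141-3p ahead in all knockout libraries. In the other seed group, miR-200c-3p had 1.03, 1.03 and 1.01 times the counts of miR-429 with ERβ, against 1.18, 1.67 and 1.23 times in the knockout, again without overlap. Against miR-200b-3p, its closest relative by sequence, miR-200c-3p had 1.56, 1.66 and 1.57 times the counts with ERβ and 1.49, 2.11 and 1.49 times in the knockout. These groups overlapped only through S2 (2.11), since knockout S1 and 3 lay below all ERβ libraries.

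Members of a single cluster did not keep a fixed ratio either. On chromosome 1, miR-429 had 1.51, 1.61 and 1.56 times the counts of miR-200b-3p with ERβ, against 1.27, 1.27 and 1.21 times in the knockout, where S2 did not stand apart. Likewise miR-200a-3p had 3.65, 3.94 and 3.63 times the counts of miR-200b-3p with ERβ, against 3.28, 3.09 and 3.12 times in the knockout. Both pairs of groups were fully apart, so miR-200b-3p was lower relative to either neighbour in all ERβ libraries. On chromosome 12, miR-141-3p had 2.23, 2.43 and 2.26 times the counts of miR-200c-3p with ERβ and 2.75, 1.90 and 2.38 times in the knockout, which overlapped.

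**Figure D3:**
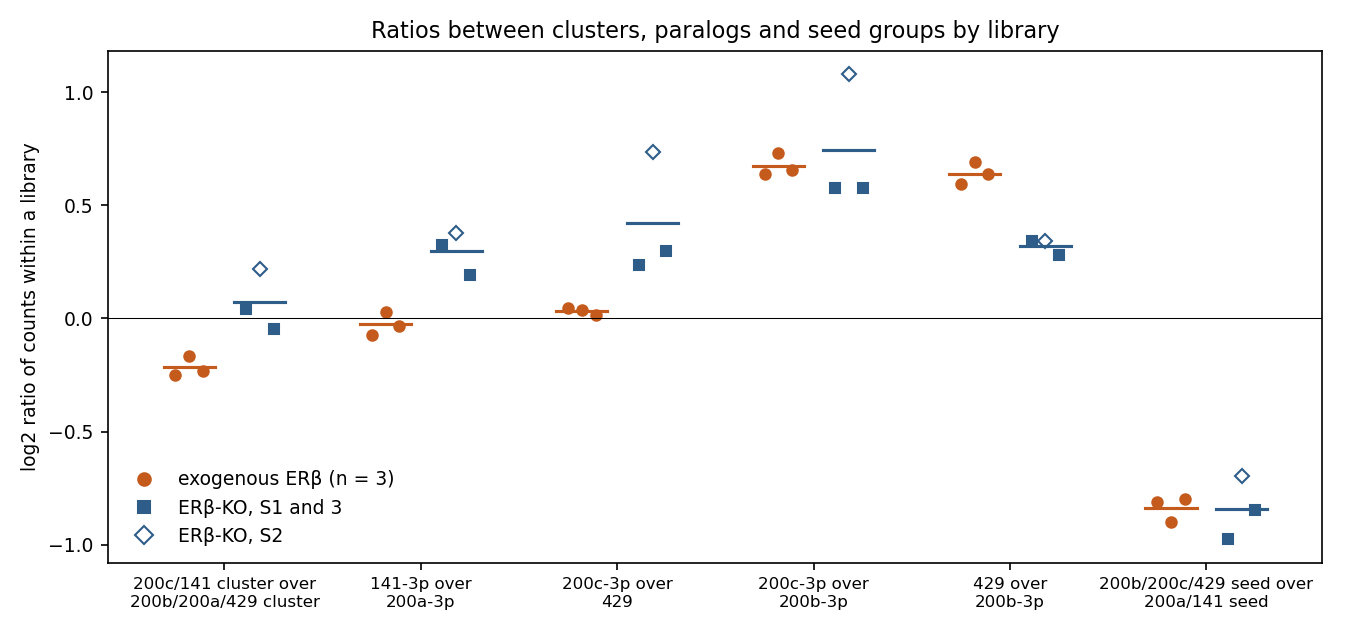
Log2 ratio of counts within each library for 6 pairs of clusters, members or seed groups, with orange circles for exogenous ERβ, blue squares for knockout S1 and 3, an open diamond for knockout S2 and bars for group means. The groups lie apart for the clusters, for miR-141-3p over miR-200a-3p, for miR-200c-3p over miR-429 and for miR-429 over miR-200b-3p. They overlap for the seed groups, and for miR-200c-3p over miR-200b-3p only through the open diamond.

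The arms of the miR-200c and miR-141 hairpins shifted against each other. In miR-200c the 5p arm made up 2.89, 2.80 and 3.02% of the hairpin's mature counts in ERβ libraries 1, 2 and 3, against 2.19, 2.00 and 2.15% in knockout libraries S1, S2 and 3. Every ERβ library lay above every knockout library, with S2 in place beside its group. The means were 2.90 ± 0.113% with ERβ and 2.11 ± 0.0957% in the knockout (SD, n = 3 each), and the log2 ratio of 5p to 3p was higher by 0.47 ± 0.09 (limma adjusted p = 0.0218 over 209 hairpins with both arms tested). In miR-141 the 5p arm made up 3.61, 3.45 and 3.75% with ERβ, against 2.65, 2.73 and 2.92% in the knockout. These groups did not overlap either, with means of 3.60 ± 0.152% and 2.77 ± 0.141%. The log2 ratio of 5p to 3p was higher by 0.39 ± 0.08 (limma adjusted p = 0.0266).

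Few hairpins passed this test: 3 of 209, or 1.44%, with 23 at an unadjusted p under 0.05, and 2 of the 3 were miR-200c and miR-141. The median change over all hairpins was -0.02, and the median of its absolute size was 0.17. The remaining one was miR-106a, singled out after its values were seen, with 1.51 ± 0.25 (limma adjusted p = 0.0218). Its 3p arm was rare, at 2.54 to 4.06 CPM with exogenous ERβ and 6.31 to 7.52 CPM in the knockout.

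In the hairpins of the chromosome 1 cluster with both arms listed, the arm balance did not pass the test. In miR-200b the 5p arm made up 1.28, 1.26 and 1.18% with ERβ, against 1.06, 1.53 and 0.995% in the knockout. In miR-200a the 5p arm made up 0.724, 0.704 and 0.711% with ERβ, against 0.598, 0.911 and 0.570% in the knockout. In both, S2 lay above all ERβ libraries and the other knockout libraries below them. The changes in the log2 ratio were 0.08 ± 0.15 (limma adjusted p = 0.927) for miR-200b and 0.07 ± 0.16 (limma adjusted p = 0.954) for miR-200a. Whether the change differed between the clusters was not tested.

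The sizes for miR-200c and miR-141 moved little across 10 alternatives, from 0.43 to 0.50 and from 0.36 to 0.44, but each call was lost in 6 of them: without knockout S1, without ERβ 1, 2 or 3, with a replicate block, and with a variance fit that has no trend and no robust step. Without S2 all 4 hairpins passed, at 0.43 for miR-200c (adjusted p = 8.84e-09), 0.38 for miR-141 (2.74e-10), 0.29 for miR-200a (0.00166) and 0.27 for miR-200b (0.0141), against 13.6% of 213 hairpins. That fit has only knockout S1 and 3 on the knockout side. Its p-values rest largely on variance pooled across hairpins rather than on the spread of each hairpin. The variance fit with no trend and no robust step was not tried without S2.

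**Figure D4:**
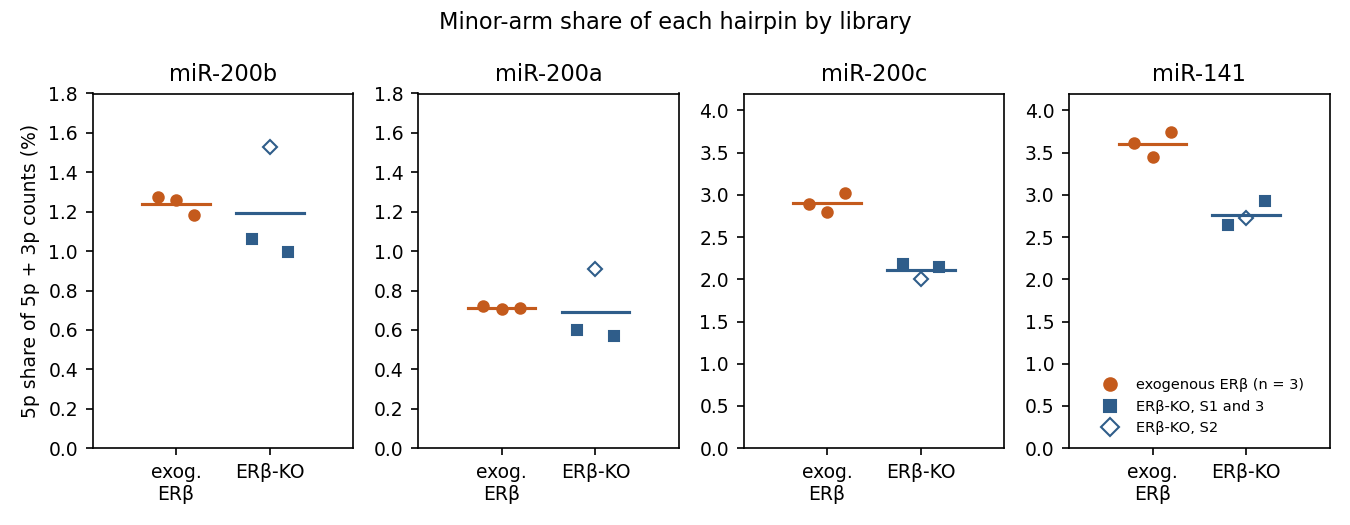
Percent of each hairpin's mature counts from the 5p arm by library, with orange circles for exogenous ERβ, blue squares for knockout S1 and 3, an open diamond for knockout S2 and bars for group means; the left 2 panels have a smaller vertical range than the right 2. In miR-200c and miR-141 all ERβ libraries lie above all knockout libraries, and in miR-200b and miR-200a the open diamond lies above the ERβ libraries and the squares below.

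**Figure D5:**
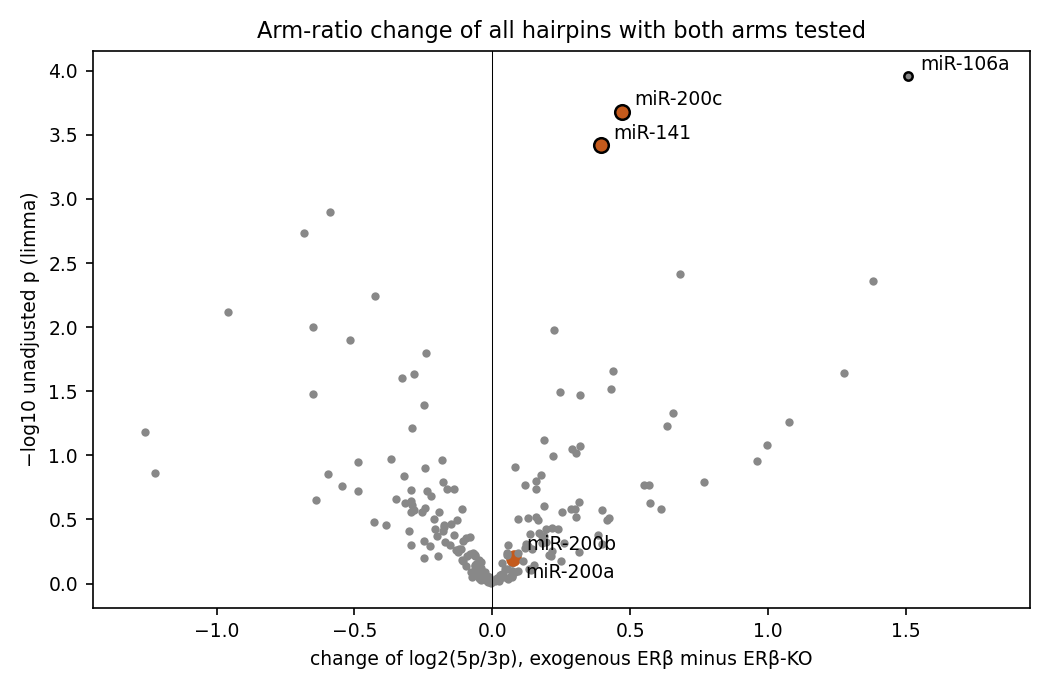
Change of the log2 5p to 3p ratio (exogenous ERβ minus knockout) against −log10 of the unadjusted limma p for 209 hairpins, with orange points for the family and black rims for the 3 hairpins with an adjusted p under 0.05. The points of miR-200c (0.47) and miR-141 (0.39) lie near the top, and those of miR-200b and miR-200a near 0.

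By likeness over libraries, the most abundant member of each cluster had different companions. The measure was the root mean square difference of log2 CPM, centred on each miRNA's mean over the 6 libraries. It was taken among 183 miRNAs outside the family with a mean of at least 100 CPM, and among the 8 other members. The nearest of 183 can lie closer than the nearest of 8 by numbers alone. Whether the family or other miRNAs lay nearer was not tested. Closest to miR-200a-3p were miR-340-5p (0.0322), miR-30d-3p (0.0386) and miR-660-5p (0.0396), all nearer than miR-429 (0.0513) and miR-141-5p (0.0548), the nearest members. Closest to miR-141-3p were miR-190a-5p (0.0689), miR-9-3p (0.0709) and miR-542-3p (0.0796), ahead of miR-200b-3p (0.101) and miR-200c-3p (0.161). The members nearest to each of these thus came from both clusters. These distances describe 6 libraries that include S2, the lowest of the knockout libraries for miR-200a-3p and miR-141-3p alike.

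Other miRNAs reported to bear on the epithelial state are set here beside the 9.83% higher and 13.3% lower of all 783 miRNAs. Of 14 reported to target ZEB or SNAI factors, 12 were tested, with 2 higher and 2 lower, counts near those shares, and a median log2 fold change of 0.02. The epithelial miR-205-5p, which targets ZEB1 and ZEB2 together with the miR-200 family, averaged 6311 ± 321 CPM with exogenous ERβ and 4388 ± 359 CPM in the knockout (SD, n = 3 each). It rose by a log2 fold change of 0.52 ± 0.08 (edgeR adjusted p = 0.00149). miR-192-5p was higher as well, at 0.21 ± 0.07 (edgeR adjusted p = 0.0418), and miR-203a-3p, abundant in stratified epithelia and reported to target SNAI2, was lower, at -0.25 ± 0.06 (edgeR adjusted p = 0.0202). The call of miR-205-5p held under all 15 alternatives, and those of miR-192-5p and miR-203a-3p were each lost in 9. The list had 3 higher and 0 lower under either upper-quartile scaling or library totals (15.7% and 8.94%, and 18.6% and 7.79%, of all miRNAs). It had 3 higher and 2 lower without S2 (15.2% and 19.6% of all), and 1 higher and 0 lower when any 1 of the other libraries was left out (6.12 to 8.71% and 7.15 to 10.8% of all).

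Of 14 miRNAs reported to promote mesenchymal change 13 were tested, with 1 higher and 6 lower, against 9.83% and 13.3% of all miRNAs, and a median of -0.24. The higher one was miR-374a-5p, with a mean of 9127 ± 486 CPM with ERβ and 6538 ± 1314 CPM in the knockout (SD, n = 3 each). Its log2 fold change was 0.48 ± 0.13 (edgeR adjusted p = 0.0295). The lowest by adjusted p was miR-10b-5p, known for promoting invasion in breast cancer models, with a mean of 3.46 ± 0.258 CPM with ERβ and 12.6 ± 1.16 CPM in the knockout. It fell by 1.85 ± 0.15 on the log2 scale (edgeR adjusted p = 4.21e-05) but was rare, and it held its call under all 15 alternatives. miR-22-3p was lower at -0.46 ± 0.07 (edgeR adjusted p = 0.00140) and miR-222-3p at -0.37 ± 0.07 (edgeR adjusted p = 0.00463). The call of miR-22-3p was lost with a replicate block (-0.40, adjusted p = 0.0526), and that of miR-222-3p with the block (-0.32, 0.132), under library totals (-0.21, 0.0741) and without ERβ 2 (-0.33, 0.0585). The count of lower members was 3 under upper-quartile scaling (8.94% of all miRNAs) and 2 under library totals (7.79%). It was 8 without S2 (19.6% of all), 4 without knockout S1, 5 without knockout 3, and 3, 2 and 3 without ERβ 1, 2 and 3, where 7.15 to 10.8% of all were lower, while 3 members were higher without S2 (15.2% of all) and 0 without any 1 ERβ library.

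Of 12 other epithelial-enriched miRNAs 11 were tested, with 4 higher and 3 lower, against 9.83% and 13.3% of all miRNAs, and a median of 0.17; miR-205-5p, miR-203a-3p and miR-192-5p stand in this list too. The most abundant, miR-224-5p, averaged 18991 ± 499 CPM with ERβ and 28404 ± 2065 CPM in the knockout (SD, n = 3 each). It fell by 0.58 ± 0.07 on the log2 scale (edgeR adjusted p = 4.34e-04). miR-584-5p rose, at 0.61 ± 0.10 (edgeR adjusted p = 0.00235). Under upper-quartile scaling and under library totals alike 6 were higher (15.7% and 18.6% of all) and 2 lower (8.94% and 7.79%). Without S2 there were 6 higher and 3 lower (15.2% and 19.6% of all), and 2 higher and 2 lower when any 1 of the other libraries was left out (6.12 to 8.71% and 7.15 to 10.8% of all).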

How the data were processed

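The 6 small RNA libraries of KPL4 cells were made with a QIAseq miRNA kit and a TaqMan reverse transcription kit is also named, per the labels' protocols. FastQC and Trim Galore are listed as tools and GRCh38 as the build, per the submitters' processing notes, which give no versions. The aligner, the counter, the miRNA release and any use of molecular identifiers were not given in the sources used here. Expected counts for each mature miRNA make up the deposited table, and between 6.33 and 7.27% of a library's values are not whole. Of the 54 values of the members 12 are not whole, 2 in each library and all of 3p arms. As the 3p arms differ by few bases, reads may have been divided among them, so ratios between close relatives are uncertain to that extent. Columns were assigned by name: 2 knockout columns carry the number 1 (called S1 and S2 after the index in their names, and known by group only), another the number 3.

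Counts were rounded. Groups were compared with edgeR 4.0.16 (R 4.3.3), using filterByExpr (minimum count 10, minimum total 15), TMM, the robust quasi-likelihood test on all 6 libraries without covariates, and Benjamini-Hochberg adjustment over 783 miRNAs at 0.05; 269 had an unadjusted p under 0.05. Standard errors are log2 fold changes divided by the root of F. Arm ratios, log2 of (5p + 0.5) over (3p + 0.5) counts, were compared with limma 3.58.1 (eBayes with trend and robust) over 209 hairpins. For within-library ratios the test was an exact two-sided permutation of libraries, computed for 11 measures. No 2 libraries of a group agreed within counting noise (chi-square per degree of freedom 12.2 to 331), and floors cover counting error only.

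Alternatives were scaling by upper quartile, by library totals, by DESeq2 (version 1.42.0) and by TMM without the 10 most abundant miRNAs, no filter on low values, at least 10 CPM in 3 libraries, limma-voom, the DESeq2 test, a replicate block and each library left out; for arm ratios no filter, an offset of 5 counts and the block; and for ratios the most abundant members, mean log2 counts and, for the family share, totals without the 10 most abundant other miRNAs. The block fit left out ERβ 2, whose number no knockout column carries. The plain eBayes fit was added after the data were seen. Tests were tried on simulated data. Named were all members, up to 3 miRNAs of each list by smallest adjusted p, the 3 miRNAs outside the family closest to the most abundant member of each cluster, and miRNAs sharing a member's seed. Outside this rule miR-374a-5p was named as the higher member of the mesenchymal list. Members and lists were chosen with earlier results of these data known. Positions are from GENCODE release 29, sequences from RefSeq (GRCh38.p14), and figures were drawn with matplotlib 3.10.9.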

Additional observations from a re-analysis of the deposited data

How the results depend on the processing

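With upper-quartile factors 1 member was higher and 0 lower, and with library totals 2 and 0, with a family median of 0.153; leaving out a library gave 0 to 2 higher and 0 to 4 lower. The ZEB or SNAI list had 1 higher without the 10 most abundant miRNAs, without a filter and by the DESeq2 test. Its lower members numbered 0 with upper-quartile factors, with totals and without a filter, and 1 without the 10 most abundant miRNAs, with 10 CPM in 3 libraries and by limma-voom; leaving out a library gave 1 to 3 higher and 0 to 2 lower. The mesenchymal list had 3 lower with upper-quartile factors and 2 with totals, and 0 to 3 higher and 2 to 8 lower with a library left out; the other epithelial list had 2 higher by the DESeq2 test, and 2 to 6 higher and 2 to 3 lower with a library left out.

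With a replicate block 0 members were lower, the ZEB or SNAI list had 1 higher and 0 lower, the mesenchymal list 0 and 1, the other epithelial list 2 and 1, and 0 member arm ratios passed (0.49 for miR-200c and 0.41 for miR-141, adjusted p = 0.252 each). The groups share only the numbers 1 and 3, so the block fit left out ERβ 2. Both knockout columns numbered 1 fell in the same block. Without ERβ 2 and with no block, 0 members were lower and 0 member arm ratios passed as well. Deviations of same-numbered libraries correlated at -0.10 and 0.14 for the knockout columns numbered 1 and 0.14 for number 3. Libraries with different numbers correlated at -0.13 to 0.07. These values do not settle whether the numbers pair the libraries, and the main fits used no pairing. With plain eBayes 0 arm ratios passed (adjusted p = 0.202 and 0.318), and 0 to 4 with a library left out.

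Directions turned for values near 0. miR-200a-3p was at 3.84e-05 with DESeq2 factors, 3.77e-05 by the DESeq2 test, 0.105 with upper-quartile factors, 0.153 with totals, 0.0381 without a filter, 0.0350 with 10 CPM, 0.00387 by voom and -0.123 to 0.0550 with a library left out. miR-660-5p was at 0.000975, 0.000979, 0.105, 0.153, 0.0391, 0.0353 and 0.00148 under the same settings, 0.0161 with the block and -0.103 to 0.0573 with a library left out. miR-30d-3p was at 0.0668 with upper-quartile factors, 0.115 with totals, 0.00150 without a filter and -0.149 to 0.0288 with a library left out, and miR-340-5p at -0.000360 without the 10 most abundant miRNAs, -0.00563 with the block and -0.122 to 0.0870 with a library left out. Over left-out libraries miR-429 ranged from -0.0185 to 0.127, miR-141-5p from -0.0201 to 0.129, the arm ratio of miR-200b from -0.0415 to 0.271 and of miR-200a from -0.0507 to 0.290, the seed ratio from -0.0635 to 0.0762, and the family share from -0.312 to 0.129 percentage points. The causes were not tested. With 3 libraries a group, permutation tests could not reach 0.05, and groups of 3 were too small for a check for single deviating values.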
